A study of Cavia porcellus with 44 samples.

Results

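Genes for the transporters of vitamin C (vitC, ascorbate) and for the enzymes that use it were taken by symbol from the variance-stabilized table. The rule used no measured values, though it was set with earlier results of these data known. Of its 7747 symbols, 34 were members. They comprised 2 transporters, 6 collagen hydroxylases, 3 HIF hydroxylases, 4 histone demethylases, 8 nucleic acid demethylases, 3 dioxygenases of metabolism, 6 other protein hydroxylases and 2 copper monooxygenases. All 34 were in the count table and were among the 7750 symbols tested. Other genes of the families, among them SLC23A1, HIF1A, EGLN2 and HPD, were not analysed here. A RefSeq entry of the same symbol existed for 31 members in the reference table. EGLN1 had the same counts in all animals as a symbol written X.47, JMJD8 the same as WDR24, and JMJD7.PLA2G4B the same as PLA2G4B, so reads of these 3 members cannot be assigned to a single gene.

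VitC reaches cells through sodium-dependent transporters of the SLC23A family. Inside the cell it helps to keep the iron of 2-oxoglutarate dioxygenases reduced, enzymes that hydroxylate collagen, hypoxia-inducible factor (HIF), carnitine precursors and branched fatty acids or demethylate histones and nucleic acids. It is also the electron donor of a small group of copper monooxygenases. Guinea pigs, like humans, cannot make vitC and depend on the feed for it. The liver is rich in several of these enzymes, since it is a site of carnitine synthesis and of the oxidation of phytanic acid, and it deposits hydroxylated collagen when it scars.

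Liver RNA of 44 female Hartley guinea pigs was sequenced at week 32. LFH animals (n = 8, labelled Low Fat and Healthy) ate a feed with 3.8% fat and 2000 mg vitC per kg throughout, and HFH animals (n = 8, High Fat, NASH) ate 20% fat, with cholesterol and sucrose, at the same vitC level. All other animals ate the high fat feed with 50 mg vitC per kg for 16 weeks. They then stayed on it (HFL/HFL, n = 10, High Fat Low Vitamin C, NASH) or changed to high fat with 2000 mg vitC per kg (HFL/HFH, n = 6, High Fat High Vitamin C, NASH), low fat with 2000 mg per kg (HFL/LFH, n = 6, Low Fat High Vitamin C, NAFLD) or low fat with 50 mg per kg (HFL/LFL, n = 6, Low Fat Low Vitamin C, NAFLD). Low fat groups were pair-fed to high fat groups. The low fat feed also held more fibre, alfalfa and starch and no coconut oil, so the effects of fat, cholesterol, sucrose and these components cannot be told apart. Each sample was the liver of 1 animal, with totals of 21133807 to 35427724 counts.

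The libraries had the marks of liver: ALB had a median of 51515 CPM (counts per 1000000 after TMM scaling). Only 2 of 8 listed hepatocyte genes (ALB and SERPINA1) were tested, and their summed level moved with the feed. Its medians were 151234, 169578 and 132546 CPM in LFH, HFL/LFH and HFL/LFL, against 62028, 51678 and 53331 CPM in HFH, HFL/HFH and HFL/HFL. Summed cholangiocyte markers (EPCAM, KRT19 and KRT7, 3 of 6) ran from 105 to 386 CPM over the low fat groups and from 599 to 1269 CPM over the high fat groups. Over the 6 of 11 stellate cell and fibroblast markers tested, the summed level had medians of 595, 467 and 644 CPM in LFH, HFL/LFH and HFL/LFL and of 891, 661 and 723 CPM in HFH, HFL/HFH and HFL/HFL. Summed macrophage markers (5 of 10) had medians of 292, 300 and 446 CPM in LFH, HFL/LFH and HFL/LFL and of 479, 612 and 721 CPM in HFH, HFL/HFH and HFL/HFL. Endothelial markers (5 of 7) had medians of 685 to 810 CPM in the low fat groups and 505 to 612 CPM in the high fat groups, and lymphocyte and neutrophil markers (11 of 11) of 585 to 618 CPM and 471 to 610 CPM. CD163 was at 0 in 8 animals, TREM2 in 5 and MPO in 24, while ALB, SERPINA1, EPCAM, KRT19 and KRT7 were at 0 in none. In whole liver, fewer cells of a type and less RNA per cell cannot be told apart. The part of these shifts in the results on feed was not tested.

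Feed was compared between 3 pairs of groups that shared no animals. TMM-adjusted totals ran from 17669332 to 24616258 on low fat feed and from 23594976 to 47935876 on high fat feed. Raw totals had group medians of 24687817 to 26713303.5, so the scaling raised CPM on low fat feed relative to high fat feed. Small differences between feeds depend on this scaling, and a fit without any such scaling was not run. In LFH against HFH, 11 of 34 members (32.4%) passed edgeR's quasi-likelihood test (adjusted p under 0.05). LFH had 7 of them higher and 4 lower. Of all symbols 49.3% passed (21.7% higher and 27.7% lower). In HFL/LFH against HFL/HFH the count was again 11, with 7 higher and 4 lower on low fat feed, beside 35.9% of all symbols (16.5% and 19.4%). In HFL/LFL against HFL/HFL it was 10, with 8 higher and 2 lower, beside 37.8% of all symbols (18.1% and 19.7%). Before adjustment, 14, 13 and 15 members had a p under 0.05 in the 3 pairs, beside 54.4%, 43.9% and 46.2% of all symbols. With limma voom the counts were 15, 16 and 12 members, beside 3890, 3522 and 2885 of 7750 symbols. With upper-quartile scaling the split in LFH against HFH was 5 higher and 7 lower. Under limma voom with sample quality weights it was 7 higher and 5 lower in HFL/LFL against HFL/HFL.

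The members' median absolute log2 fold change was 0.28, 0.30 and 0.35 in the 3 pairs, in that order, and that of all symbols 0.44, 0.39 and 0.37. Only 3 members, PHYH, BBOX1 and P3H2, passed in all 3 pairs, each higher on low fat feed, where 10.5% of all symbols passed in all as higher and 13.4% as lower. Another 7 members passed in 2 pairs, 9 in 1 pair and 15 in none. At least 1 pair was passed by 19 members (55.9%), beside 61.4% of all symbols. The sign of the fold change was the same in all pairs for 24 members (69.6% of all symbols).

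**Figure D1:**
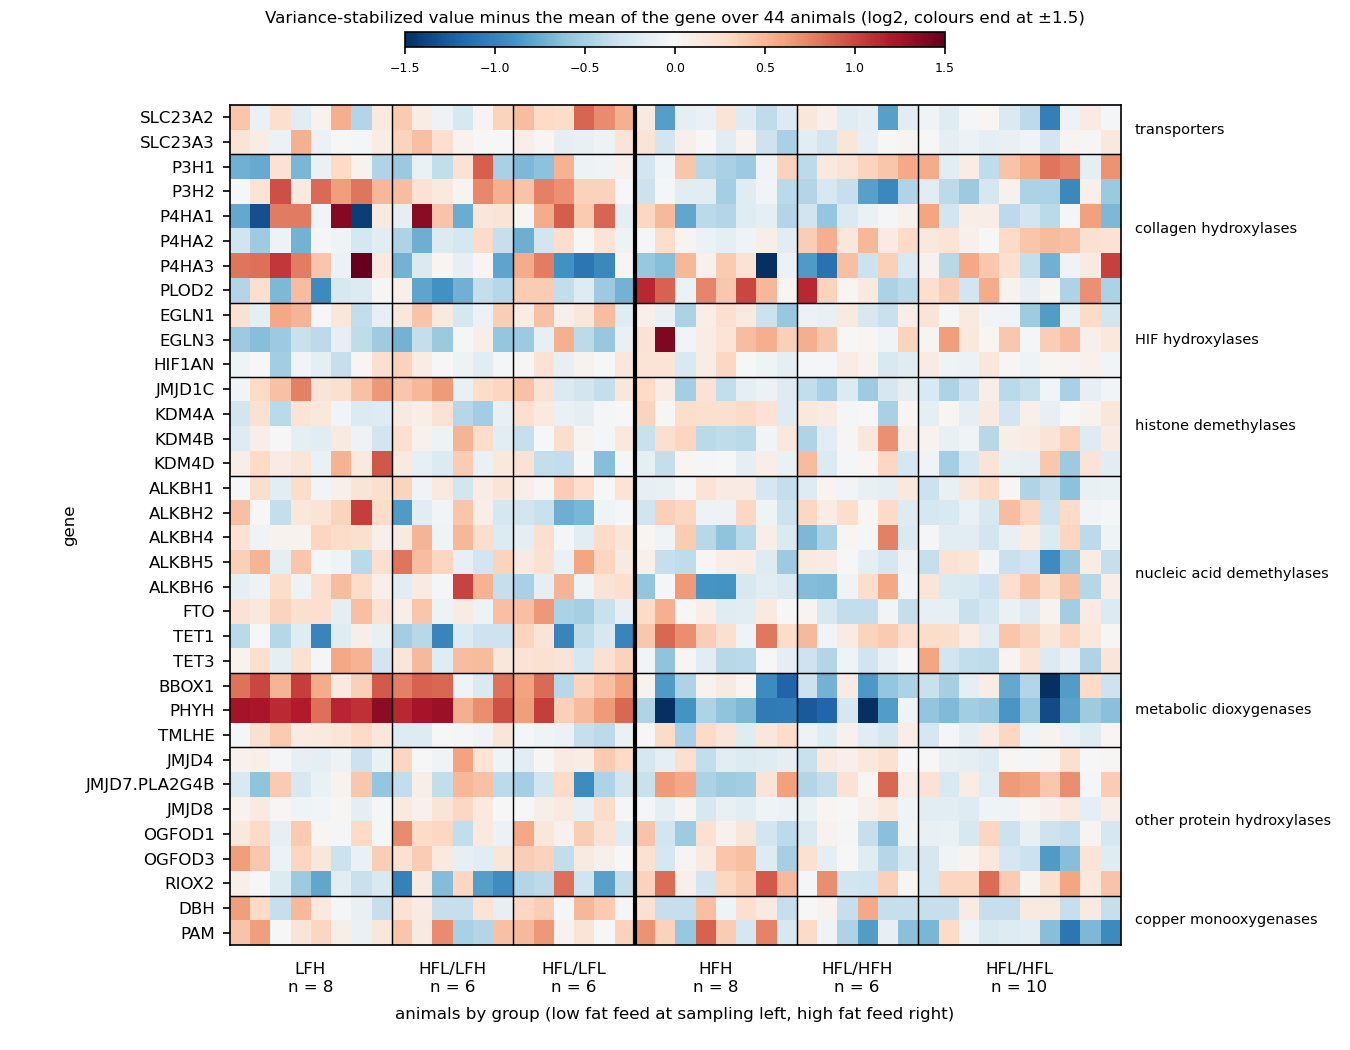
Variance-stabilized values of the 34 members (rows, by family) in 44 animals (columns, by group), each minus the mean of the gene over all animals, on the log2 scale with colours ending at ±1.5. The heavy line parts the 20 animals on low fat feed at week 32 from the 24 on high fat feed; in the PHYH row the left side is red throughout and the right side blue, with 1 pale HFL/HFH animal (2486 CPM).

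Of the 3 dioxygenases of metabolism, PHYH and BBOX1 were higher on low fat feed in every pair and TMLHE passed in none. PHYH, the peroxisomal phytanoyl-CoA hydroxylase that opens the breakdown of phytanic acid, had its lowest, median and highest levels on low fat feed at 4513, 5734 and 6380 CPM in LFH, 3702, 5288 and 6171 CPM in HFL/LFH, and 3299, 3955 and 5199 CPM in HFL/LFL. On high fat feed they were 826, 1503 and 1871 CPM in HFH, 915, 1289 and 2486 CPM in HFL/HFH, and 1027, 1693 and 1798 CPM in HFL/HFL. All 20 animals on low fat feed lay above all 24 on high fat feed, which held for no other member and, as higher on low fat feed, for 1.3% of all symbols. The level was 3.90-fold higher in LFH than in HFH (log2 fold change 1.96, 95% interval 1.62 to 2.31, adjusted p = 2.12e-12). It was 3.34-fold higher in HFL/LFH than in HFL/HFH (1.74, 1.34 to 2.14, adjusted p = 3.75e-09) and 2.57-fold higher in HFL/LFL than in HFL/HFL (1.36, 1.02 to 1.70, adjusted p = 2.76e-08).

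BBOX1 makes carnitine in the last step of its synthesis. The lowest, median and highest levels were 638, 946 and 1197 CPM in LFH, 501, 1006 and 1103 CPM in HFL/LFH, and 437, 834 and 1038 CPM in HFL/LFL. In HFH they were 254, 511 and 639 CPM, in HFL/HFH 320, 406 and 638 CPM, and in HFL/HFL 160, 452 and 710 CPM. The medians on low fat feed were all above those on high fat feed, but the animals overlapped in each pair. BBOX1 rose 2.02-fold in LFH against HFH (log2 fold change 1.01, SE 0.23, adjusted p = 0.000243), 2.01-fold in HFL/LFH against HFL/HFH (1.01, SE 0.26, adjusted p = 0.00204) and 1.77-fold in HFL/LFL against HFL/HFL (0.83, SE 0.23, adjusted p = 0.0037). TMLHE, which catalyses the first step of carnitine synthesis, had log2 fold changes of 0.11, 0.03 and -0.18.

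Genes that work beside these enzymes were taken from lists. Of 8 tested genes of carnitine synthesis and use (9 listed), 6 were higher and 0 lower in LFH than in HFH, 5 and 0 in HFL/LFH against HFL/HFH, and 5 and 0 in HFL/LFL against HFL/HFL. Of all symbols, 21.7%, 16.5% and 18.1% passed as higher in these pairs and 27.7%, 19.4% and 19.7% as lower. The median log2 fold changes of the list were 0.84, 0.93 and 0.55, beside -0.06, -0.01 and -0.03 for all symbols. ALDH9A1, which acts between TMLHE and BBOX1, was higher on low fat feed by 0.99, 1.10 and 0.84, and CROT, the peroxisomal carnitine octanoyltransferase, by 1.60, 1.44 and 0.68. SHMT1, a serine hydroxymethyltransferase, was higher by 1.64, 1.67 and 1.53. All of these passed the test in each pair.

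Of 5 tested genes of phytanate oxidation (8 listed), 4 were higher on low fat feed in every pair: SLC27A2, PEX7, HACL1 and ACOX2. As higher in every pair, 10.5% of all symbols passed. SLC27A2, which activates very long and branched fatty acids, was higher by 1.27, 1.29 and 0.92 on the log2 scale, and HACL1, the lyase that follows PHYH, by 0.62, 0.86 and 0.64. ACOX2, a peroxisomal oxidase of branched chains, was higher by 0.85, 0.96 and 0.85. The fifth, PHYHD1, a relative of PHYH, was lower in HFL/LFH than in HFL/HFH (-0.72, adjusted p = 0.0485) and in HFL/LFL than in HFL/HFL (-0.99, adjusted p = 0.0032), and missed the threshold in LFH against HFH (-0.58, adjusted p = 0.0515). In tyrosine breakdown, which holds the ascorbate-linked dioxygenase HPD that was not analysed here, HGD, itself a dioxygenase, was higher on low fat feed by 1.61, 1.85 and 1.57 and passed in all pairs.

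The dioxygenases consume 2-oxoglutarate and release succinate. Among 12 tested genes (15 listed) that supply or remove these metabolites, 10 were higher and 1 lower in LFH than in HFH, and 9 were higher and 0 lower in each of the other pairs, with medians of 0.65, 0.53 and 0.44. The shares of all symbols that passed were 21.7% higher and 27.7% lower in LFH against HFH. They were 16.5% and 19.4% in HFL/LFH against HFL/HFH, and 18.1% and 19.7% in HFL/LFL against HFL/HFL. Medians over all symbols were -0.06, -0.01 and -0.03. IDH1, a cytosolic source of 2-oxoglutarate, was higher on low fat feed by 1.18, 0.99 and 0.73. The exception, IDH3A, a subunit of the mitochondrial isocitrate dehydrogenase, was lower in LFH than in HFH (-0.63).

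**Figure D2:**
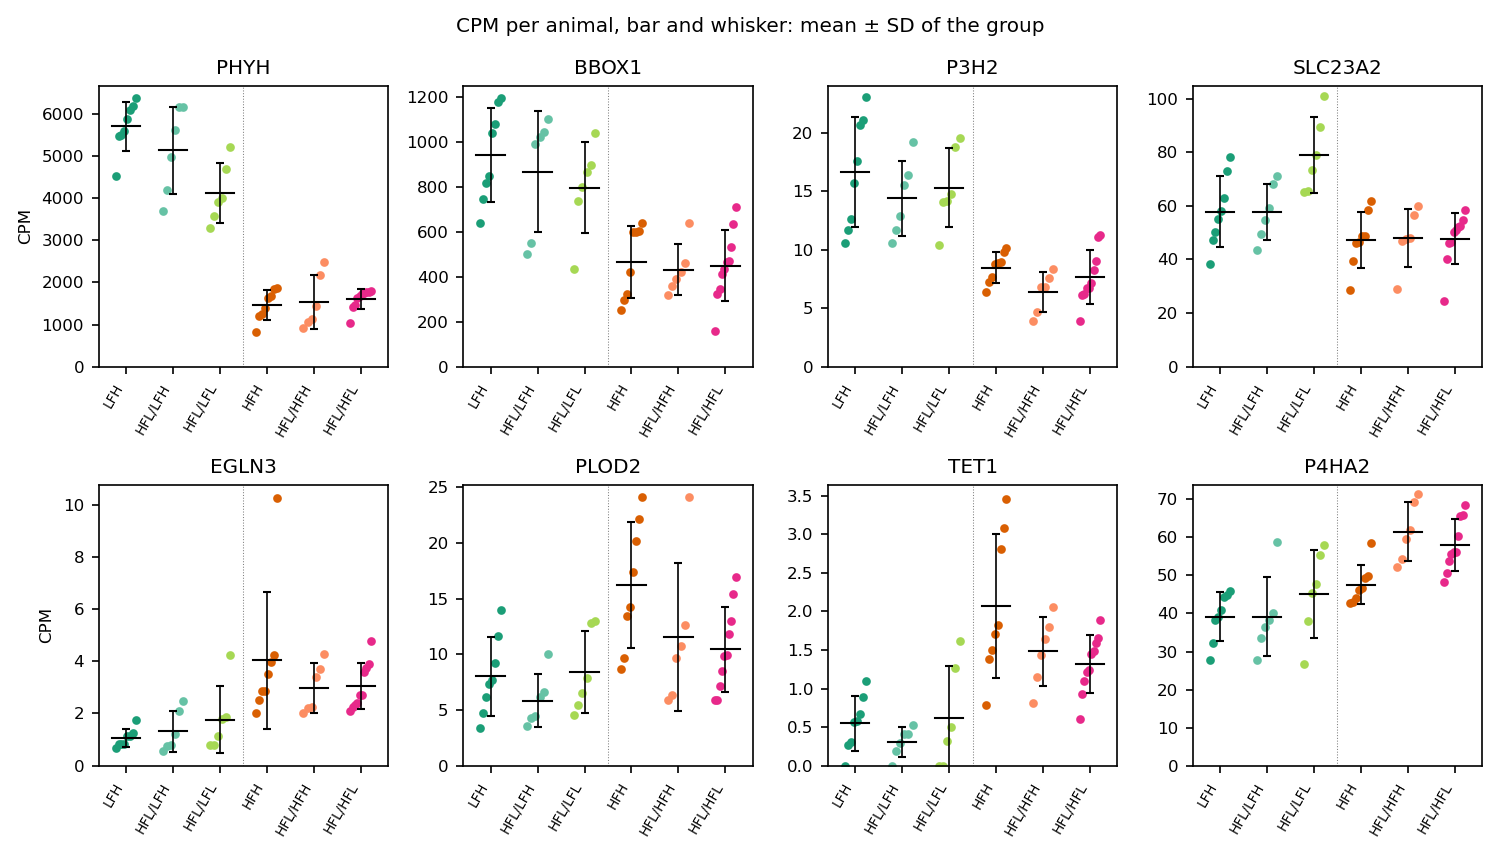
CPM (vertical axis, from 0) of 8 members in each animal by group, with the mean and SD of each group in black and the low fat groups left of the dotted line. PHYH, BBOX1 and P3H2 are higher and EGLN3, PLOD2 and TET1 lower on the low fat side; in SLC23A2 the 6 HFL/LFL animals start at 65.3 CPM.

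The collagen hydroxylases did not move as a group. P3H2, a prolyl 3-hydroxylase that acts on collagens of basement membranes, had lowest, median and highest levels of 10.6, 16.6 and 23.0 CPM in LFH, 10.6, 14.2 and 19.2 CPM in HFL/LFH, and 10.4, 14.5 and 19.5 CPM in HFL/LFL. On high fat feed they were 6.36, 8.78 and 10.1 CPM in HFH, 3.92, 6.80 and 8.38 CPM in HFL/HFH, and 3.88, 6.93 and 11.2 CPM in HFL/HFL. Every LFH animal lay above every HFH animal and every HFL/LFH animal above every HFL/HFH animal (16.9% and 16.2% of all symbols had no overlap in these pairs), while HFL/LFL and HFL/HFL overlapped. The rise on low fat feed was 1.96-fold, 2.26-fold and 2.0-fold in the 3 pairs (log2 fold changes 0.97, 1.18 and 1.0, SE 0.19, 0.22 and 0.19, adjusted p = 2.95e-05, 3.05e-05 and 4.75e-05).

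PLOD2, the lysyl hydroxylase that sets the kind of cross-link between collagen molecules, went the other way. Its lowest, median and highest levels were 3.40, 7.48 and 14 CPM in LFH and 8.69, 15.8 and 24.2 CPM in HFH, and the fall of 1.02 on the log2 scale passed the test (SE 0.30, adjusted p = 0.00376). In HFL/LFH they were 3.57, 5.28 and 10.0 CPM and in HFL/HFH 5.92, 10.2 and 24.1 CPM, a difference of -0.99 (adjusted p = 0.021). Without animal 15 of HFL/HFH, the highest of its group, this difference was -0.63 and missed the threshold (adjusted p = 0.144), as it did without animal 4 or 32 of HFL/LFH (0.0508 and 0.0556). HFL/LFL and HFL/HFL, with medians of 7.20 and 9.91 CPM, differed by -0.32 (95% interval -0.93 to 0.30).

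P4HA2, a catalytic subunit of the prolyl 4-hydroxylase that lets the collagen helix form, had medians of 37.4 CPM in HFL/LFH and 60.7 CPM in HFL/HFH and fell by 0.65 on the log2 scale on low fat feed (adjusted p = 0.000434). In HFL/LFL against HFL/HFL the fall was 0.36 (adjusted p = 0.0266), which was -0.25 and missed the threshold without animal 13 of HFL/LFL (adjusted p = 0.125), and was also lost without animal 17 (0.0752). LFH and HFH differed by -0.28 (adjusted p = 0.0636). P4HA3, another catalytic subunit, was higher in LFH (median 19.2 CPM) than in HFH (9.60 CPM) by 1.18 (adjusted p = 0.0129). Without animal 79 of LFH, at 47.6 CPM, the difference was 0.87 with an adjusted p of 0.064, and in the other pairs it was -0.13 and -0.33. P4HA1 and P3H1 passed in no pair. P4HA1 was among the members that varied most inside groups, from 16.0 to 130 CPM in LFH.

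Of 28 listed genes for collagens, their chaperones and lysyl oxidases, 11 were tested, and COL1A1, COL1A2 and COL3A1, the main fibrillar collagens, were not analysed here. Of these 11, 0 were higher and 9, 8 and 9 were lower in the 3 pairs, with medians of -1.37, -1.0 and -1.0. Of all symbols, 21.7%, 16.5% and 18.1% passed as higher and 27.7%, 19.4% and 19.7% as lower. COL4A2, a basement membrane collagen, differed by -2.20, -2.01 and -1.08, LOXL1, a lysyl oxidase, by -2.75, -1.92 and -2.02, and FKBP14, a collagen chaperone, by -1.58, -1.0 and -0.68. Over the same pairs the 6 collagen hydroxylases had medians of 0.13, -0.18 and -0.33.

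Among the HIF hydroxylases, EGLN3 differed with the feed and EGLN1 and HIF1AN did not pass the test. EGLN3, a prolyl hydroxylase of HIF that is itself a HIF target, had lowest, median and highest levels of 0.683, 0.978 and 1.76 CPM in LFH and 2.03, 3.19 and 10.3 CPM in HFH, with no overlap (as in 16.9% of all symbols). It fell 3.81-fold (log2 fold change -1.93, SE 0.34, adjusted p = 7.92e-06), and by 1.57 (adjusted p = 7.12e-05) without animal 6 of HFH, the animal at 10.3 CPM. In HFL/LFH the values were 0.565, 1.01 and 2.47 CPM and in HFL/HFH 2.0, 2.81 and 4.28 CPM, and the animals overlapped, with a difference of -1.17 (SE 0.39, adjusted p = 0.0148). In HFL/LFL they were 0.791, 1.46 and 4.25 CPM and in HFL/HFL 2.09, 2.72 and 4.77 CPM. This difference of -0.79 missed the threshold (adjusted p = 0.0695), and without animal 44 of HFL/LFL, at 4.25 CPM, it was -1.26 (adjusted p = 0.0039). Limma voom called it with all animals (-1.02, adjusted p = 0.0122).

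EGLN1, the main oxygen-sensing HIF prolyl hydroxylase, had medians of 38.6, 41.2 and 40.5 CPM in LFH, HFL/LFH and HFL/LFL and of 36.3, 33.9 and 35.9 CPM in HFH, HFL/HFH and HFL/HFL. Its log2 fold changes were 0.24 (95% interval -0.07 to 0.55), 0.25 (-0.12 to 0.61) and 0.30 (-0.02 to 0.62). HIF1AN, the asparagine hydroxylase of HIF, had medians between 29.3 and 31.9 CPM in the 6 groups and log2 fold changes of -0.17, 0.09 and 0.03. Upper-quartile scaling moved HIF1AN past the threshold in LFH against HFH (-0.24, adjusted p = 0.0277), as did limma voom and leaving out animal 92 of LFH (adjusted p = 0.0488 and 0.0452). Without animal 27 of LFH the difference was -0.11 (adjusted p = 0.327).

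Of 6 tested HIF partners and regulators (14 listed), 2 were higher (RBX1 and ELOC) and 2 lower (SIAH2 and ARNT2) in LFH than in HFH. In each of the other pairs 0 were higher and SIAH2 and ARNT2 were lower. Of all symbols, 49.3%, 35.9% and 37.8% passed in the 3 pairs. ARNT2, a partner subunit of HIF, differed by -3.58, -3.12 and -2.47, and SIAH2, a ubiquitin ligase that acts on EGLN proteins, by -0.49, -0.48 and -0.28. Of 19 tested HIF target genes (24 listed), 6 were higher and 8 lower in LFH than in HFH, 5 and 8 in HFL/LFH against HFL/HFH, and 4 and 6 in HFL/LFL against HFL/HFL, beside the same shares of all symbols. DDIT4, an inhibitor of mTORC1 signalling, was higher on low fat feed by 2.57, 2.21 and 0.99. NDRG1, a stress-response gene, differed by -1.48, -0.63 and -0.51.

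**Figure D3:**
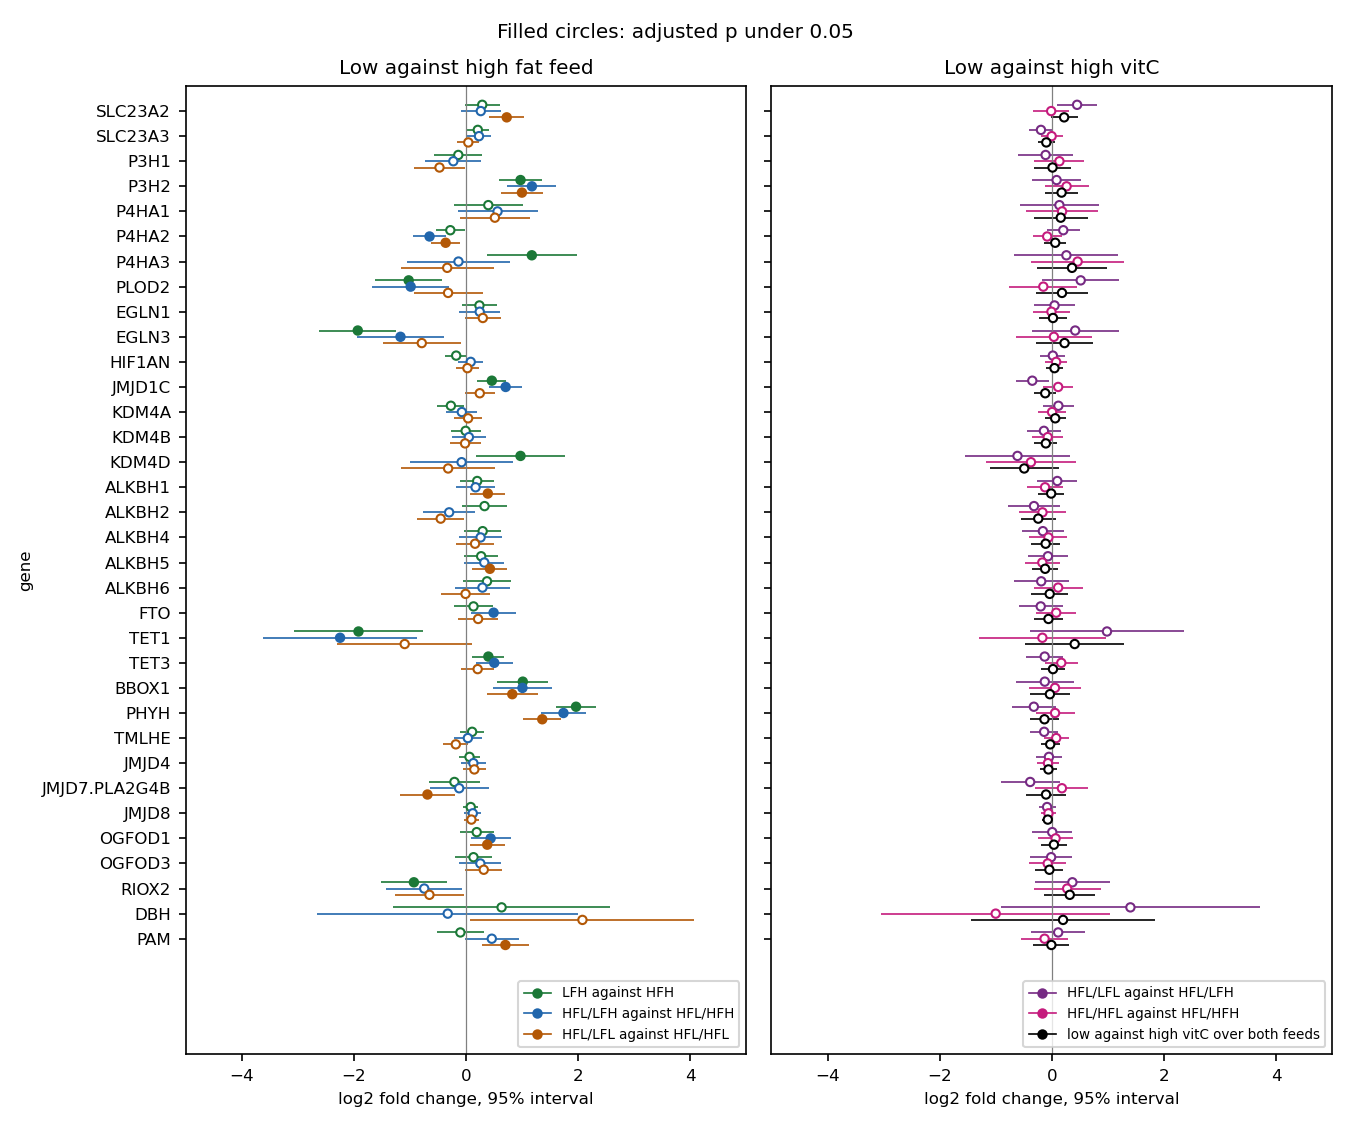
Log2 fold changes (horizontal axis) of the 34 members with 95% intervals, for low against high fat feed in 3 pairs of groups (left) and for low against high vitC (right). Filled circles mark an adjusted p under 0.05; they number 11, 11 and 10 on the left and 0 on the right.

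TET1 and TET3 oxidize methylcytosine in DNA, and they differed in opposite directions. TET1 counts were low, from 0 to 38 in the animals on low fat feed and from 17 to 166 in those on high fat feed. The lowest, median and highest levels were 0, 0.574 and 1.09 CPM in LFH and 0.784, 1.76 and 3.46 CPM in HFH. In HFL/LFH they were 0, 0.351 and 0.53 CPM, all below the 0.812, 1.54 and 2.05 CPM of HFL/HFH, and in HFL/LFL 0, 0.412 and 1.61 CPM against 0.599, 1.34 and 1.89 CPM in HFL/HFL. The animals of the first and last of these pairs overlapped, and 16.2% of all symbols had no overlap in HFL/LFH against HFL/HFH. TET1 fell by 1.92 in LFH against HFH (SE 0.57, adjusted p = 0.00497) and by 2.25 in HFL/LFH against HFL/HFH (SE 0.68, adjusted p = 0.00814), and differed by -1.09 in HFL/LFL against HFL/HFL (adjusted p = 0.148).

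TET3 was higher in LFH than in HFH (medians 53.5 and 42.9 CPM, log2 fold change 0.40, adjusted p = 0.0176) and in HFL/LFH than in HFL/HFH (60.7 and 41.4 CPM, 0.51, adjusted p = 0.0133). The first of these missed the threshold without animal 64 or animal 79 of LFH (adjusted p = 0.0543 and 0.0504), and with upper-quartile scaling (0.0549). FTO, which removes methyl groups from adenosine in RNA, passed only in HFL/LFH against HFL/HFH (0.49, adjusted p = 0.0449). This was lost without animal 3, 4 or 58 of HFL/LFH or animal 19, 20, 22 or 84 of HFL/HFH, with an adjusted p of up to 0.118, and also with upper-quartile scaling (0.0758) or no filter on low counts (0.0663). ALKBH5, with a like activity, and ALKBH1, which acts on transfer RNA, passed only in HFL/LFL against HFL/HFL (0.43 and 0.39, adjusted p = 0.0267 and 0.0431). The call of ALKBH5 was lost without animal 49 or 53 of HFL/LFL or 75 of HFL/HFL (adjusted p up to 0.105), and that of ALKBH1 without animal 44, 49 or 68 of HFL/LFL or 12, 29, 55, 75 or 81 of HFL/HFL (up to 0.106). ALKBH1 also missed the threshold with upper-quartile scaling (0.0603), no filter (0.0661), limma voom (0.0639) and only the groups compared (0.109). A difference between the pairs was tested for the 4 groups that began on high fat feed, as the interaction of feed and vitC, and 0 members passed it.

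JMJD1C, of the JmjC family of histone demethylases, rose on low fat feed in the pairs with high vitC. In LFH the lowest, median and highest levels were 67.9, 90.3 and 120 CPM and in HFH 47.9, 63.7 and 85.9 CPM, and the difference was 0.46 (adjusted p = 0.00242). In HFL/LFH they were 62.8, 90.4 and 109 CPM, all just above the 47, 55.4 and 62.7 CPM of HFL/HFH, and the difference was 0.71 (adjusted p = 0.000165). No overlap was seen in this pair for 16.2% of all symbols. In HFL/LFL and HFL/HFL the medians were 69.4 and 57.5 CPM and the difference 0.25 (adjusted p = 0.133). KDM4A and KDM4B, lysine demethylases of histones, passed in no pair. KDM4D, of the same family and at 4 to 72 counts per animal, was higher in LFH than in HFH (medians 1.43 and 0.929 CPM, 0.97, adjusted p = 0.038), and this was 0.70 with an adjusted p of 0.144 without animal 92 of LFH. It was also lost without animal 64 of LFH or animal 1, 6, 47 or 88 of HFH, with upper-quartile scaling (adjusted p = 0.0576) and with no filter (0.0529).

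Of 8 tested partners in DNA and histone methylation (21 listed), UHRF1, which guides the copying of DNA methylation and is most active in dividing cells, was lower on low fat feed in every pair, with log2 fold changes of -3.59, -3.65 and -3.34. The others passed in 2 pairs at most. OGT, a glycosyltransferase that binds TET proteins, differed by -0.34 and KDM1A, a demethylase of another enzyme class, by -0.24 in LFH against HFH. HR, a JmjC protein outside the rule, was lower on low fat feed, with log2 fold changes of -2.31, -1.84 and -2.08.

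Among the other protein hydroxylases, RIOX2, which hydroxylates a ribosomal protein, had medians of 6.36 CPM in LFH and 11.3 CPM in HFH and fell by 0.93 (SE 0.29, adjusted p = 0.00693). In the other pairs it differed by -0.74 and -0.65 (adjusted p = 0.0778 and 0.0852), and limma voom called both (-0.98 and -0.85, adjusted p = 0.0136 and 0.023). The first of these passed without animal 4 or 33 of HFL/LFH (adjusted p = 0.0291 and 0.0136). The last of these was -1.12 (adjusted p = 0.0024) without animal 44 of HFL/LFL, which stood at 16.7 CPM where the next animal had 6.01 CPM. OGFOD1, a prolyl hydroxylase of a ribosomal protein, was higher in HFL/LFH than in HFL/HFH (0.44, adjusted p = 0.0462) and in HFL/LFL than in HFL/HFL (0.38, adjusted p = 0.0497). The first was lost without animal 3, 4, 32 or 43 of HFL/LFH or 15, 22 or 30 of HFL/HFH (adjusted p up to 0.199). The second was lost without animal 13, 17, 49 or 53 of HFL/LFL or 12, 29, 31, 52, 55, 75, 81 or 93 of HFL/HFL (up to 0.164). Upper-quartile scaling (0.0604 and 0.0657) and no filter (0.0673 and 0.0682) ended both calls, only the groups compared the first (0.0952) and limma voom the second (0.0555). JMJD7.PLA2G4B was lower in HFL/LFL than in HFL/HFL (-0.69, adjusted p = 0.021, and 0.0716 without animal 49 of HFL/LFL). JMJD4, JMJD8 and OGFOD3 passed in no pair, and JMJD8 had the smallest spread of the members, with an SD inside groups of 0.11 on the log2(CPM + 1) scale.

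PAM, which amidates peptide hormones and takes its electrons from ascorbate, passed in HFL/LFL against HFL/HFL. The lowest, median and highest levels were 74.1, 90.1 and 115 CPM in HFL/LFL and 32.7, 54.6 and 90.4 CPM in HFL/HFL, and the difference was 0.70 (SE 0.21, adjusted p = 0.00667). In LFH against HFH, with medians of 82.6 and 95.8 CPM, it was -0.10 (95% interval -0.51 to 0.31), and in HFL/LFH against HFL/HFH, with medians of 90.8 and 60.2 CPM, 0.46 (-0.02 to 0.94, adjusted p = 0.128). DBH, which makes noradrenaline, was close to its floor of 3 counts: at most 22 counts were seen in any animal, and 2 to 6 animals of every group were at or under 3. It passed in no pair.

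SLC23A2, the vitC transporter present in most tissues, passed in 1 pair. Its lowest, median and highest levels were 65.3, 76.3 and 101 CPM in HFL/LFL and 24.7, 50.6 and 58.5 CPM in HFL/HFL. No animals of these groups overlapped, where 9.9% of all symbols had no overlap, and the level was 1.66-fold higher in HFL/LFL (log2 fold change 0.73, SE 0.16, adjusted p = 0.000284). LFH animals lay at 38.2, 56.5 and 78.1 CPM, HFL/LFH animals at 43.6, 56.9 and 71.2 CPM, HFH animals at 28.6, 47.5 and 61.7 CPM and HFL/HFH animals at 29, 47.9 and 59.9 CPM. Low against high fat feed differed by 0.29 in LFH against HFH (95% interval -0.02 to 0.60) and by 0.27 in HFL/LFH against HFL/HFH (-0.09 to 0.63), and neither passed.

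SLC23A3, an orphan of the transporter family, varied less. Its medians were 206, 221 and 197 CPM in LFH, HFL/LFH and HFL/LFL and 188, 193 and 194 CPM in HFH, HFL/HFH and HFL/HFL. The log2 fold changes of 0.21, 0.23 and 0.04 had adjusted p-values of 0.062, 0.0954 and 0.769. DESeq2 put the first past the threshold (adjusted p = 0.0433), and limma voom the second (0.04). So did leaving out animal 27 or 56 of LFH or 1, 9 or 47 of HFH for the first, and animal 20 of HFL/HFH for the second. In the other direction, the first was 0.14 without animal 46 of LFH (adjusted p = 0.224) and the second 0.17 without animal 4 of HFL/LFH (0.275).

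Genes that regenerate ascorbate or take up its oxidized form were also listed. Of 13 tested (21 listed), 7 were higher and 2 lower in LFH than in HFH, 4 and 3 in HFL/LFH against HFL/HFH, and 5 and 3 in HFL/LFL against HFL/HFL, beside 49.3%, 35.9% and 37.8% of all symbols. The median log2 fold changes of the list were 0.34, 0.30 and 0.27, and those of all symbols -0.06, -0.01 and -0.03. GSTO1, a dehydroascorbate reductase, was higher on low fat feed by 0.96, 0.99 and 0.58. Its relative GSTO2 was among the lower genes in the last 2 pairs. SLC2A8, a hexose transporter that also carries dehydroascorbate, had log2 fold changes of -2.02, -2.24 and -1.70, and AKR1A1, an aldehyde reductase, was higher by 0.57, 0.49 and 0.39.

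**Figure D4:**
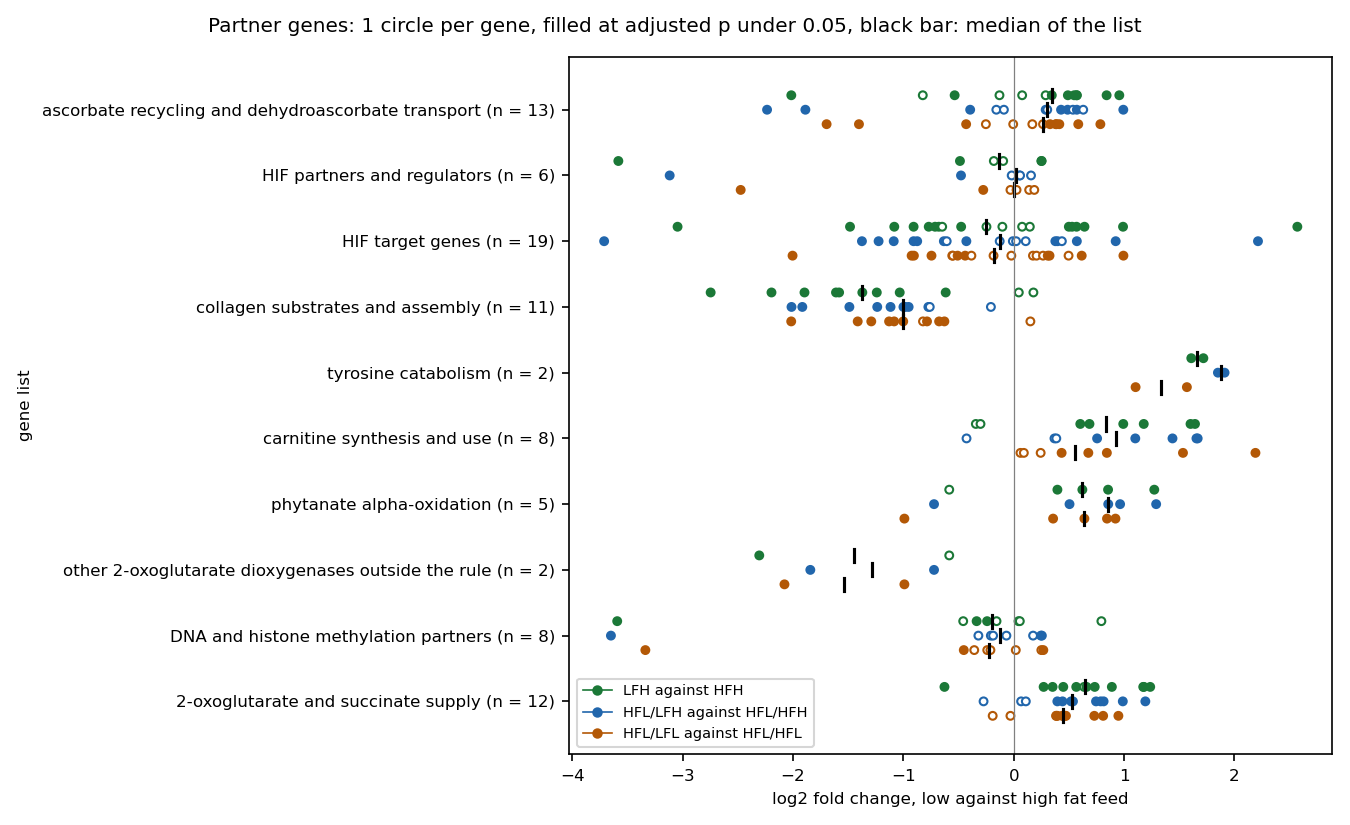
Log2 fold changes (horizontal axis) of low against high fat feed for the tested genes of 10 lists, 1 circle per gene and 1 colour per pair of groups, filled at an adjusted p under 0.05, with the median of each list as a black bar. Genes of carnitine, phytanate and 2-oxoglutarate metabolism lie mostly to the right, with medians of 0.44 to 0.93, and collagen genes to the left, with medians of -1.0 to -1.37.

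The question of vitC was addressed in the 4 groups that shared the first 16 weeks. These comparisons use the same animals as those of feed. In HFL/LFL against HFL/LFH, 0 of 34 members passed edgeR's test, beside 0.219% of all symbols. At an unadjusted p under 0.05 there were 2, SLC23A2 and JMJD1C, beside 11% of all symbols. In HFL/HFL against HFL/HFH 0 members passed (0.0129% of all symbols), and 0 had an unadjusted p under 0.05 (3.37%). Over both feeds together the counts were again 0 (0.0129%) and 0 (7.23%). Neither DESeq2 nor limma voom called a member in any of these comparisons. Of all 7750 symbols, DESeq2 called 80 in HFL/LFL against HFL/LFH, 1 in HFL/HFL against HFL/HFH and 30 over both feeds, and limma voom 40, 1 and 1. No member had groups without overlap on low fat feed (0.503% of all symbols) or on high fat feed (0.0258%). The members' median absolute log2 fold change was 0.15 between vitC levels on low fat feed and 0.10 on high fat feed, and that of all symbols 0.18 and 0.12.

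SLC23A2 was the member with the smallest p for vitC. It was 1.37-fold higher in HFL/LFL than in HFL/LFH (log2 fold change 0.45, 95% interval 0.09 to 0.81, p = 0.015, adjusted p = 0.291 by edgeR), and the 2 groups overlapped between 65.3 and 71.2 CPM. On high fat feed the difference was -0.01 (-0.33 to 0.31), and the test of the difference between feeds missed the threshold before adjustment as well (interaction 0.46, -0.02 to 0.94, p = 0.059, adjusted p = 0.605). JMJD1C was lower in HFL/LFL than in HFL/LFH (-0.35, 95% interval -0.64 to -0.05, p = 0.0227, adjusted p = 0.335). It was the 1 member with an unadjusted p under 0.05 for the interaction (-0.46, p = 0.0241, adjusted p = 0.5), which 8.23% of all symbols had, and 0 members passed after adjustment (0% of all symbols).

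After SLC23A2, the smallest p-values for low against high vitC over both feeds were those of KDM4D (-0.49, 95% interval -1.11 to 0.12), ALKBH2 (-0.24, -0.55 to 0.07), RIOX2 (0.32, -0.13 to 0.77) and JMJD8 (-0.07, -0.17 to 0.03). Without animal 44 of HFL/LFL the value for RIOX2 was 0.09. For the enzymes most tied to feed, the same differences were -0.13 (-0.39 to 0.13) for PHYH, -0.03 (-0.38 to 0.32) for BBOX1 and 0.18 (-0.11 to 0.47) for P3H2. Leaving out 1 animal gave -0.19 (without animal 22 of HFL/HFH) to -0.03 (without animal 84 of HFL/HFH) for PHYH, -0.09 to 0.04 for BBOX1 and 0.12 to 0.23 for P3H2. Those of the HIF hydroxylases were 0.02 (-0.22 to 0.26) for EGLN1, 0.23 (-0.29 to 0.74) for EGLN3 and 0.05 (-0.10 to 0.20) for HIF1AN, and that of EGLN3 was -0.01 without animal 44 of HFL/LFL. In the 10 lists of partner genes, 0 genes passed in this comparison.

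The comparison of HFL/HFL with HFH sets low against high vitC over the whole 32 weeks of high fat feed. By the study's account these groups also differed in energy intake before week 16, which cannot be told apart from vitC here. It had 0 members past the threshold (0.271% of all symbols) and 5 at an unadjusted p under 0.05 (17.3%). The smallest p was that of PAM, with medians of 54.6 CPM in HFL/HFL and 95.8 CPM in HFH and a difference of -0.73 (95% interval -1.12 to -0.34, adjusted p = 0.0804). DESeq2 called 1 member and 147 of 7750 symbols here, and limma voom 2 members and 557 symbols.

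Animals that had changed to low fat feed were also set against LFH animals, which were never on high fat feed. HFL/LFL differed from LFH in vitC at week 32 as well, so the part of feed history and that of vitC cannot be told apart there. In HFL/LFH against LFH, 0 members passed (0.361% of all symbols) and 5 had an unadjusted p under 0.05 (10.4%), and DESeq2 and limma voom each called 0 members (64 and 17 of all 7750 symbols). In HFL/LFL against LFH, 2 members passed, both lower, beside 7.91% of all symbols (4.43% higher and 3.48% lower), and 9 had an unadjusted p under 0.05 (22.8%). DESeq2 called 3 members, KDM4D (-1.22, adjusted p = 0.0412) in addition, and 780 of 7750 symbols. The 2 were ALKBH2, which repairs alkylated DNA, and TMLHE.

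ALKBH2 had lowest, median and highest levels of 5.97, 8.98 and 11.9 CPM in HFL/LFL and 8.51, 14.5 and 28.0 CPM in LFH. The groups overlapped, and the fall was 0.81 on the log2 scale (SE 0.22, adjusted p = 0.0181). It missed the threshold without animal 79 of LFH or animals 44 or 49 of HFL/LFL (adjusted p = 0.0621, 0.0594 and 0.0674), and with only the groups compared (0.0653). TMLHE lay at 16.8, 21.4 and 22.3 CPM in HFL/LFL and 22.7, 25.9 and 30.9 CPM in LFH. No animals overlapped, as in 1.39% of all symbols, and the fall was 0.40 (SE 0.12, adjusted p = 0.025). Without animal 49 or 53 of HFL/LFL it missed the threshold (adjusted p = 0.0846 and 0.0754), as it did by limma voom (0.0552). In HFL/LFH the difference from LFH was -0.49 for ALKBH2 (adjusted p = 0.405) and -0.27 for TMLHE (adjusted p = 0.393).

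The members differed in how much animals of the same group varied. The SD inside groups on the log2(CPM + 1) scale had a median of 0.317 over members and 0.302 over all symbols. It was largest for P4HA3 (0.755), P4HA1 (0.637), PLOD2 (0.544) and RIOX2 (0.506), so in these genes only larger differences could be told from the spread.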

How the data were processed

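Per the labels, mRNA of snap-frozen left lateral liver lobe was sequenced from oligo-dT libraries. The authors trimmed reads with Trimmomatic 0.38.0, aligned them with HISAT2 2.1.0 to the Ensembl guinea pig genome, quantified them with StringTie 2.1.1 and named genes by human orthologues. Strand and the conversion of StringTie output to counts are not given in the sources used here. The deposited counts per symbol (11967 symbols) are not normalized. The authors' variance-stabilized values (DESeq2) are on a log2 scale and served for choosing members and for the heat map.

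Counts were fitted in R 4.3.3 with edgeR 4.0.16 (TMM, quasi-likelihood F test, two-sided), with all 44 animals and 1 mean per group, over symbols with a total of at least 200. P-values were adjusted by the Benjamini-Hochberg procedure over all symbols in each of 10 comparisons, and an adjusted p under 0.05 was a call. CPM (counts per 1000000) were scaled by TMM-adjusted totals, and the floor of 3 counts equals 0.0626 to 0.17 CPM, which covers counting error only. The fit was tested on simulated data. Alternatives were RLE and upper-quartile scaling, no filter, filterByExpr, symbols of equal counts taken once, only the groups compared, limma 3.58.1 voom with quality weights, DESeq2 1.42.0, and each animal left out in turn. The members, lists and rules were chosen with earlier results of these data known. The rule named both transporters, EGLN1, EGLN3 and HIF1AN, members that passed in all 3 feed pairs, in a vitC comparison or against LFH, the 5 smallest p for vitC, and up to 3 genes per list by p in LFH against HFH. Some genes the rule named are not reported here. Other genes with values were chosen after their values were seen. No labels gave a batch.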

Additional observations from a re-analysis of the deposited data

Results flagged for a closer look

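In each of 204 combinations of member and group, Dixon's test asked whether the highest or lowest animal stood far from the rest. It marked 17 (8.33%) in 15 members. The nominal rate of about 1 in 20 holds for independent, normally distributed values. CPM can be skewed and several marks share an animal, so no excess over chance can be read from this count. Animal 44 of HFL/LFL was marked high for EGLN3 (4.25 CPM, next animal 1.85 CPM) and RIOX2 (16.7 CPM), and animal 49 of the same group low for TET3 (39.8 CPM). Animal 6 of HFH was marked high for EGLN3 (10.3 CPM) and P4HA2 (58.4 CPM), and animal 9 of HFH for ALKBH6 (75.9 CPM) and JMJD4 (98 CPM). In HFL/HFH, animal 30 was marked high for ALKBH4 (44.7 CPM) and low for KDM4A (18.1 CPM), animal 15 high for PLOD2 (24.1 CPM) and animal 22 high for DBH (0.755 CPM). In HFL/HFL, animal 81 was marked high for JMJD4 (96.4 CPM), animal 34 high for OGFOD1 (33.4 CPM) and animal 75 low for PHYH (1027 CPM). Animal 79 of LFH was marked high for P4HA3 (47.6 CPM), animal 46 of LFH for SLC23A3 (293 CPM) and animal 4 of HFL/LFH for P4HA1 (132 CPM). No comparison of feed or vitC between groups was marked as differing from another: 0 members passed the test of the interaction by edgeR, DESeq2 or limma voom, and 1, JMJD1C, had an unadjusted p under 0.05.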

How the results depend on the processing

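Of the 34 calls of members over all comparisons, 26 were kept under every alternative that used all animals, 21 without any 1 animal, and 21 under both. No sign of a called value changed in any alternative. The count of members called ranged from 10 to 15 in LFH against HFH, 9 to 16 in HFL/LFH against HFL/HFH and 8 to 12 in HFL/LFL against HFL/HFL. Without 1 animal it was 9 to 14, 9 to 12 and 6 to 12, the 6 without animal 49 of HFL/LFL. In HFL/HFL against HFH it was 2 by limma voom (557 of all 7750 symbols), 1 by DESeq2 (147 symbols) and 0 to 1 without 1 animal (1 without animal 9, 47 or 88 of HFH or animal 29 of HFL/HFL). In HFL/LFL against LFH it was 1 by limma voom (418 symbols), 1 with only the groups compared in the fit, 3 by DESeq2 (780 symbols), and 0 to 4 without 1 animal: 0 without animal 49, 1 without animal 44 or 53 and 4 without animal 13 of HFL/LFL, and 1 without animal 79 of LFH. SLC23A2 was higher there (0.52, adjusted p = 0.043) without animal 64 of LFH. The cause of these shifts was not tested. Counts of 0 in the comparisons of vitC, the interaction and HFL/LFH against LFH were 0 in every alternative. The alternatives with all animals called 0 to 80 of all symbols in HFL/LFL against HFL/LFH, 0 to 1 in HFL/HFL against HFL/HFH, 0 to 30 for vitC over both feeds, 0 to 3 for the interaction and 3 to 64 in HFL/LFH against LFH, where DESeq2 gave or shared the highest count. No paired analysis was possible because no animal was sampled in more than 1 group. Groups of 6 to 10 animals limit what can be told apart: the 95% intervals for vitC over both feeds reached 0.46 for SLC23A2 and -1.11 for KDM4D on the log2 scale.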
